A study of Mus musculus with 9 samples.

Results

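The markers of the interstitial stroma described here are 10 of the 18193 genes with a probe set of their own on the array: the transcription factor genes Foxd1, Meis1 and Tbx18, the receptor gene Pdgfra, the matrix genes Col1a1, Col3a1, Dcn, Lum and Postn, and the peptide precursor gene Penk. Their probe sets were taken as all those whose single gene symbol in the platform annotation was one of these names, which gave 18 of its 45101 probe sets. The arrays held RNA from renal vesicles that had been cut by laser from mouse kidneys at E12.5, in 4 biologically independent Lim1 mutant samples and 5 wild-type samples. Each sample pooled about 30 to 50 vesicles, and the RNA was amplified in a pair of rounds before labelling. The labels give neither the Lim1 allele nor the strain, and they do not say how many embryos or litters a sample drew on. Since nothing in the labels counts the litters, the spread between arrays of 1 group is the only error available for the p values below.

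The interstitial stroma is the mesenchyme that surrounds the ureteric bud and the forming nephrons. Its cortical part is known for the forkhead factor Foxd1 and gives rise to pericytes, mesangium and interstitial fibroblasts, while its fibroblasts lay down fibrillar collagens and small leucine-rich proteoglycans. A renal vesicle is an epithelial ball derived from the cap mesenchyme, so a pure vesicle capture is not a sample of stroma. The comparison therefore asks how much stromal signal the captures carried in each genotype, and whether stromal factors and matrix genes varied together from array to array.

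The mutated gene Lim1, now named Lhx1, was read by 2 probe sets. At one of them signals of 6.88 to 10.5 in the mutants stood against 2327 to 17587 in the wild type, and at the other 4108 to 4951 in the mutants against 1696 to 18555 in the wild type. The log2 differences were -6.64 (limma adjusted p = 0.00329) and -0.86 (limma adjusted p = 0.833), and which part of the gene each probe set reads was not looked up here. Of 13 vesicle markers, 12 were measured and all of these lay above the filter on dim probe sets. Summed over the 12, the signal came to 138925 to 159435 in the mutants and 122239 to 298203 in the wild type, with the lowest sum on wild-type array 3. That array also had the lowest mean correlation with the other arrays, 0.850 against 0.860 to 0.901, and the highest ratio of 3 prime to 5 prime Gapdh signal, 87.6 against 12.4 to 61.4. Its ratio for beta-actin, 18.0, lay inside the 14.7 to 25.2 of the other arrays. Array medians were between 144 and 195. Results that rest on wild-type array 3 are given with and without it.

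The promoters of members with different array patterns are shown because MEIS factors, of which Meis1 is one, are known to bind the core motif TGACAG, and Meis1 is the member whose arrays separated by genotype at 1 of its probe sets. RefSeq windows (GRCm38.p6, 250 bases before to 50 after the annotated start, in the direction of transcription) were matched for 6 of the 10 genes, namely Foxd1, Meis1, Tbx18, Pdgfra, Col3a1 and Postn. TGACAG on either strand was present in the windows of 4 of these 6 genes and in 19.2% of all 32851 windows of that length. The windows with the motif were those of Foxd1 (chr13:98353995-98354294, plus strand), Tbx18 (chr9:87731211-87731510, minus strand), Pdgfra (chr5:75152001-75152300, plus strand) and Col3a1 (chr1:45311288-45311587, plus strand). Capitals mark the motif or its reverse complement.
Foxd1: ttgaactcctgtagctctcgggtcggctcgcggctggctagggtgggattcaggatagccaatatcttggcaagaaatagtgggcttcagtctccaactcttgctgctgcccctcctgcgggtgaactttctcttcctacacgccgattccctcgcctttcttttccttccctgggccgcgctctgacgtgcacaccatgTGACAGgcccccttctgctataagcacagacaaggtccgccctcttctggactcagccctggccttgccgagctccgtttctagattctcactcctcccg
Tbx18: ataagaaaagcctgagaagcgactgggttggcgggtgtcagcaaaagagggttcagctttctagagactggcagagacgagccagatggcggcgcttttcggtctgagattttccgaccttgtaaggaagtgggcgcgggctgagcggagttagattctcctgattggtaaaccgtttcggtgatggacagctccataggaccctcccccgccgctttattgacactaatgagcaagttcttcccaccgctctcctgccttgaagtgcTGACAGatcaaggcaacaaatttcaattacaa
Pdgfra: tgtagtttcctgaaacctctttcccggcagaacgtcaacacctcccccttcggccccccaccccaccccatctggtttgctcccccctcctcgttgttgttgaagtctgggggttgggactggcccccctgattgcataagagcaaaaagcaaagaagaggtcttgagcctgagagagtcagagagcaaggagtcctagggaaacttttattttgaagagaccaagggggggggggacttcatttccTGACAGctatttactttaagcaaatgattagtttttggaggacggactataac
Col3a1: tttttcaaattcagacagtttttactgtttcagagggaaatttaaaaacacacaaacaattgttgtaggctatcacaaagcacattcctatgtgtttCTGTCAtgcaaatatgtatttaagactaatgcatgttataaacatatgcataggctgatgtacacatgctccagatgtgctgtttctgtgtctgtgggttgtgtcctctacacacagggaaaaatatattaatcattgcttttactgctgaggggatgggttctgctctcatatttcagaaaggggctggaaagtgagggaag
The match began at -50 relative to the annotated start in Foxd1, at 19 in Tbx18, at -3 in Pdgfra and, on the opposite strand, at -153 in Col3a1. The windows of Meis1 and Postn held none. TATAAA was found in Col3a1 and Postn (13.6% of all windows), CCAAT in Foxd1, Meis1, Tbx18 and Postn (37.4%), and the forkhead core TGTTTA in Col3a1 (13.4%), each searched on both strands. These are matches of letters and not measured binding.

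Across genotypes, none of the 10 genes passed the test, and the only one with a probe set above the filter at which the groups did not overlap was Meis1. Signals are the deposited linear intensities, and differences are mutant minus wild type on the log2(signal + 42.4) scale after quantile normalisation, fitted with limma. Of the 18 probe sets, 14 lay above the filter, which corresponds to a signal of about 102. None of the 14 had an adjusted p under 0.05 in limma, against 0.0333% of all 27022 probe sets tested (0.0148% higher and 0.0185% lower in the mutants), and 1 had an unadjusted p under 0.05, against 6.67% of all. At 1 of the 14 the groups did not overlap, against 2.25% of all (1.37% with the mutants higher and 0.884% with the mutants lower). The 14 differences had a median of -0.52 (4 above 0 and 10 below), where all tested probe sets had a median of 0.03. By gene, 4 of the 10 differences were above 0 with all arrays, and 5 of the 10 without wild-type array 3. In these captured samples, a change in the number of stromal cells and a change in RNA per stromal cell cannot be told apart.

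Foxd1, the forkhead factor that defines cortical stroma, had signals of 2284, 3912, 6232 and 1553 on mutant arrays 1 to 4, against 6015, 6014, 3733, 1122 and 297 on wild-type arrays 1 to 5. The mutant values lay inside the wild-type range but for mutant array 3, which was the highest of all 9, and wild-type arrays 1 and 2 nearly matched it. The log2 difference was 0.47 ± 0.81 (SE, adjusted p = 0.947 in limma), with p = 0.643 in a two-sided exact permutation test. Wild-type array 5 was the lowest, and without it the difference was -0.16 ± 0.63 (limma adjusted p = 0.975). The signal spanned 21-fold from the lowest to the highest array.

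Meis1, a homeobox factor of the TALE class expressed in stroma and other mesenchyme, had its highest mean on the normalised log2 scale, by which probe sets were chosen to stand for genes, at 1450992_a_at. On the scale of the deposited signal the mean over the 9 arrays was higher at 1443260_at, 5797 against 5117, so the choice of scale decides which of these stands for Meis1. Signals at 1450992_a_at, to which the values in the rest of this paragraph belong, were 6182, 6285, 7848 and 6676 on mutant arrays 1 to 4. They stood against 4755, 4181, 2895, 4188 and 3048 on wild-type arrays 1 to 5. Every mutant array lay above every wild-type array, a pattern shared by 1.37% of all tested probe sets. The mean was 6748 ± 764 in the mutants (SD, n = 4) and 3813 ± 805 in the wild type (n = 5). The log2 difference was 0.85 ± 0.25 with an adjusted p = 0.647 in limma, so the separation did not pass over all probe sets, and a two-sided exact permutation test gave p = 0.00794, which is the lowest value that 4 arrays against 5 allow. With each array left out in turn the difference stayed between 0.75 and 0.93. Since the groups did not overlap with all arrays, their separation in these 9 fits adds no support.

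The other Meis1 probe sets did not show this separation. At 1443260_at the mutant arrays held both the highest and the lowest signals, with 11097, 587, 1116 and 8960.3 on mutant arrays 1 to 4, against 4016, 4388, 4122, 9996 and 7895 on wild-type arrays 1 to 5. The spread was 18.9-fold, against 2.71-fold at the first probe set, and the log2 difference was -0.91 ± 0.79 (adjusted p = 0.879). At the dim probe set 1459423_at the signals were 135 to 246 in the mutants and 92.6 to 387 in the wild type (-0.065 ± 0.50, adjusted p = 0.989). With the 3 probe sets averaged, the Meis1 difference was -0.044 ± 0.36 (adjusted p = 0.99), so the direction for the gene depends on the probe set. If probe sets were chosen by mean deposited signal, an alternative added after seeing the data, 1 of the 10 genes would switch, Meis1, and none of the 10 would have groups without overlap. No coordinates of the probes were used here, and whether the 3 probe sets read the same transcripts was not tested.

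**Figure D1:**
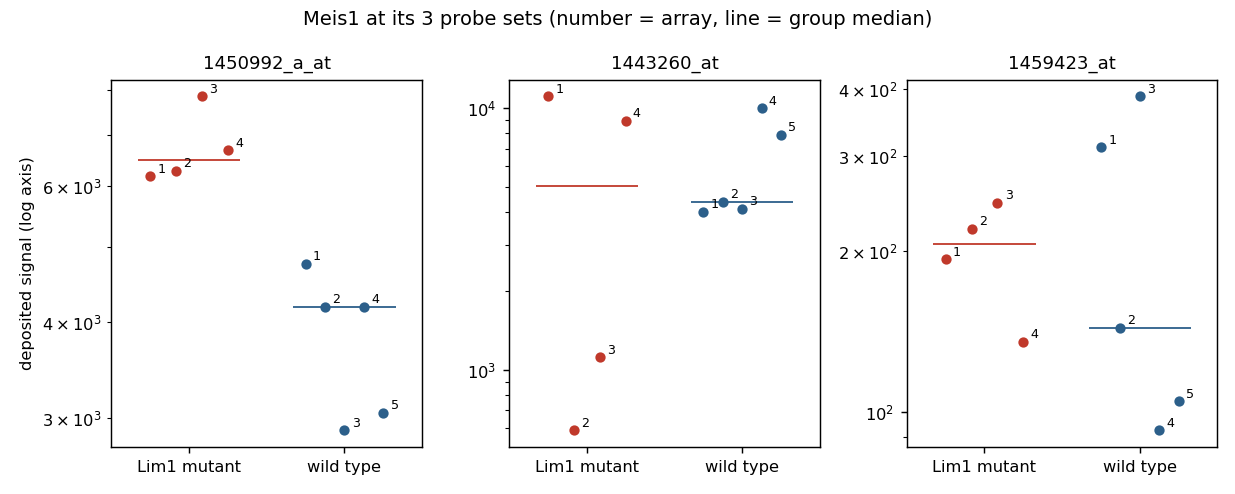
Deposited signal of Meis1 (log axis) at its 3 probe sets, 1 point per array with the array's number, Lim1 mutant left and wild type right, and a line at each group's median. At 1450992_a_at the mutant arrays, at 6182 to 7848, lie above the wild-type arrays, at 2895 to 4755, while at 1443260_at mutant arrays 2 and 3 are the lowest of all and mutant array 1 the highest.

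Tbx18, a T-box factor of ureteral and periureteral mesenchyme, varied far more than either. Its signals were 44.3, 100.2, 824 and 1374 on mutant arrays 1 to 4, against 53.9, 1899, 7275, 692 and 283 on wild-type arrays 1 to 5. Mutant array 1 and wild-type array 1 were both near the bottom, and wild-type array 3 stood 3.83-fold above the next array. On the log2 scale the difference was -1.23 ± 1.22 (adjusted p = 0.895), and without wild-type array 3 it was -0.44 ± 1.09 (limma adjusted p = 0.951). A dimmer Tbx18 probe set, under the filter, had 2.88 to 180.0 in the mutants and 11.3 to 429.8 in the wild type. At that probe set wild-type array 3 had 11.3, the lowest of the wild-type arrays, so the 2 probe sets of Tbx18 disagreed on that array.

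Pdgfra, the receptor for PDGF-A that marks much of the embryonic mesenchyme, had signals of 361, 2364, 4128 and 211 on mutant arrays 1 to 4, against 841, 5048, 8302, 2788 and 1724 on wild-type arrays 1 to 5. Mutant arrays 1 and 4 were the lowest of the 9 and wild-type array 3 the highest, with the other arrays intermixed. The log2 difference of -1.61 ± 0.90 had an adjusted p = 0.799 in limma and a two-sided exact permutation p of 0.183. It was -1.22 ± 0.91 without wild-type array 3 (limma adjusted p = 0.811), -0.94 without mutant array 4 and -2.32 without mutant array 3. The other 2 probe sets were below the filter, at 18.3 to 103 and 10.1 to 21.4 in the mutants and at 34.6 to 216 and 9.09 to 479.7 in the wild type, with the groups overlapping at both. In fits with no filter their differences were -0.96 ± 0.46 and -1.65 ± 0.59 (limma adjusted p = 0.857 and 0.815).

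**Figure D2:**
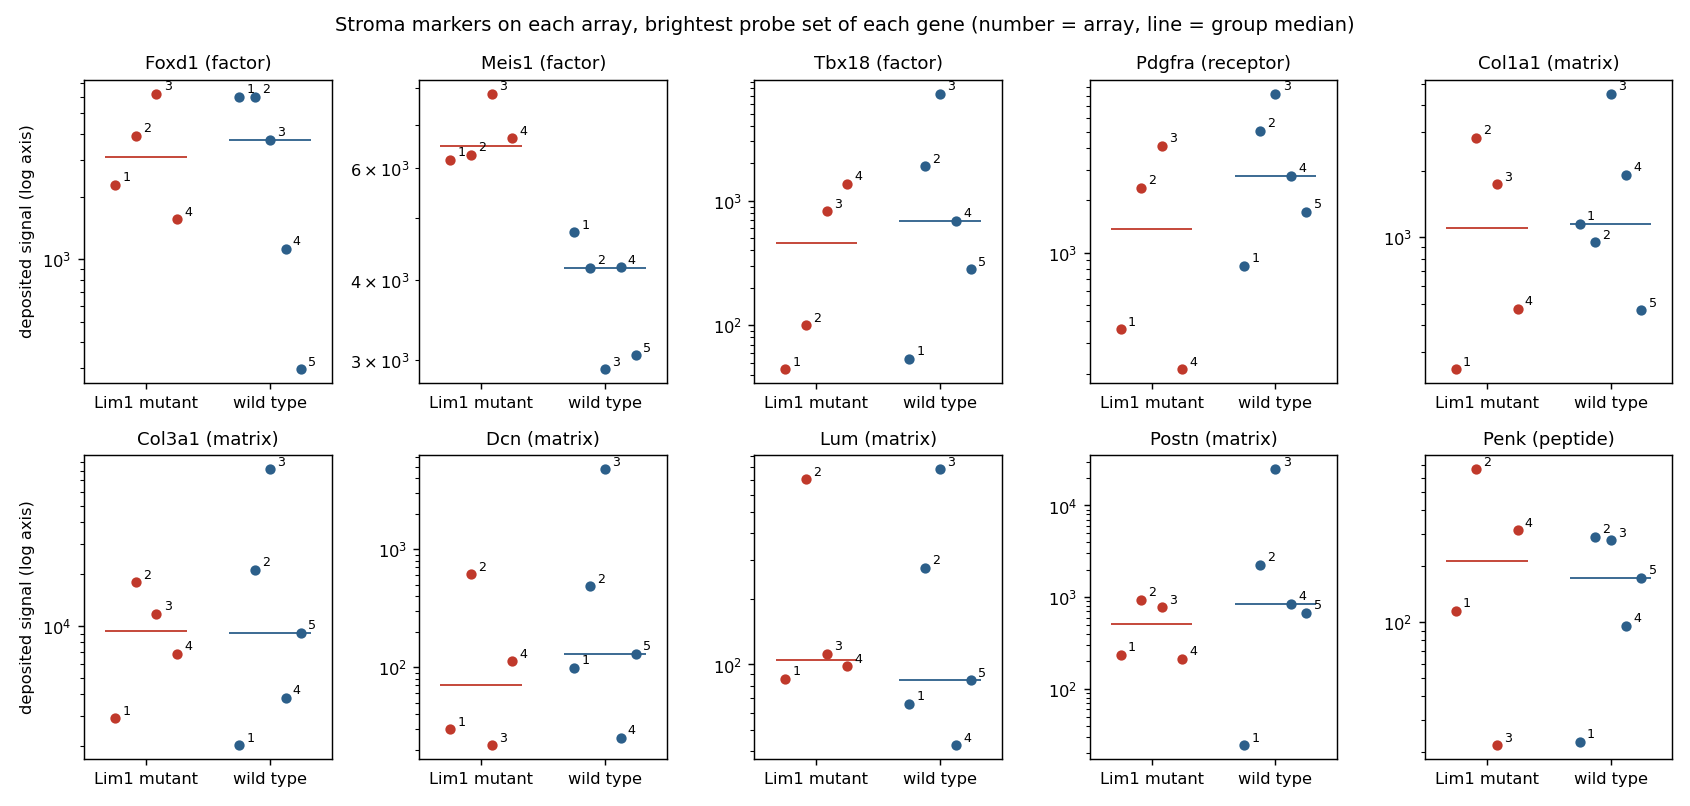
Deposited signal of the 10 genes at the probe set with the highest mean on the normalised log2 scale (log axes, each panel with its own range), 1 point per array with the array's number, Lim1 mutant left and wild type right, and a line at each group's median. Only the Meis1 panel, drawn for 1450992_a_at, has groups that do not overlap, and wild-type array 3 is the top point for Tbx18, Pdgfra and the 5 matrix genes.

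The 5 matrix genes shared 1 feature, their maximum on wild-type array 3. Col3a1, which encodes the chain of the fibrillar collagen III of loose connective tissue, had signals of 2890.2, 17873, 11764 and 6859 on mutant arrays 1 to 4, against 2023, 21087, 81376, 3797 and 9116 on wild-type arrays 1 to 5. Wild-type array 3 exceeded the next array 3.86-fold, and among the other 8 arrays the genotypes overlapped. The difference was -0.38 ± 0.91 (adjusted p = 0.962) and 0.32 ± 0.74 without wild-type array 3 (limma adjusted p = 0.949), so its sign turned with that array. It was also above 0 without mutant array 1, at 0.11. The second Col3a1 probe set had 305, 1112, 839.6 and 587 in the mutants, against 173, 2072, 10969, 108 and 108 in the wild type, with the same array on top (-0.01 ± 1.18, adjusted p = 0.999).

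Postn, which encodes the matricellular protein periostin, had the widest range of the 10 genes, 1014-fold. Its signals were 236, 934, 775 and 212 on mutant arrays 1 to 4, against 24.5, 2273, 24827, 848 and 676 on wild-type arrays 1 to 5. Both extremes were wild-type arrays, with array 3 at 10.9 times the next highest and array 1 at the bottom. The log2 difference of -1.33 ± 1.33 (adjusted p = 0.895) became -0.23 ± 0.99 without wild-type array 3 (limma adjusted p = 0.974).

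Dcn, which encodes the small proteoglycan decorin that binds collagen fibrils, had signals of 29.8, 609.8, 21.8 and 112 on mutant arrays 1 to 4, against 98.3, 484, 4753, 25.2 and 129.7 on wild-type arrays 1 to 5. Wild-type array 3 was 7.79-fold above the next array, mutant array 2, and 5 of the 9 arrays lay at 112 or lower. Mutant minus wild type gave -1.21 ± 1.14 (adjusted p = 0.887), and -0.26 ± 0.82 without wild-type array 3 (limma adjusted p = 0.964). The dimmer Dcn probe set also peaked on wild-type array 3, at 558, against 6.45 to 138 in the mutants and 58.2 to 199 on the other wild-type arrays.

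Lum encodes lumican, a proteoglycan of the same family, and is the next protein-coding gene to Dcn on chromosome 10. Its signals were 85.7, 705, 112 and 98.2 on mutant arrays 1 to 4, against 66.2, 277, 785, 42.7 and 84.6 on wild-type arrays 1 to 5. Mutant array 2 and wild-type array 3 were alike and far above the rest, which were near the filter apart from wild-type array 2. This gave a log2 difference of 0.07 ± 0.77 (adjusted p = 0.993), which was -0.56 without mutant array 2 and 0.60 without wild-type array 3.

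Col1a1, which encodes a chain of collagen I, had signals of 251, 2831, 1745 and 472 on mutant arrays 1 to 4, against 1154, 950.0, 4504, 1929.9 and 466 on wild-type arrays 1 to 5. Wild-type array 3 was 1.59-fold above mutant array 2, the next highest, and the groups overlapped through most of the range. Its log2 difference was -0.66 ± 0.80 (adjusted p = 0.917). It was -0.24 without wild-type array 3, -0.065 without mutant array 1 and -1.23 without mutant array 2. The other Col1a1 probe set lay below the filter, at 29.9 to 89.8 in the mutants and 9.10 to 100.4 in the wild type, and its highest array was wild-type array 1.

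Penk, the precursor of the enkephalin opioid peptides and a marker of inner kidney stroma, followed neither pattern. Its signals were 115, 666, 21.8 and 313 on mutant arrays 1 to 4, against 22.7, 287, 276, 95.9 and 174 on wild-type arrays 1 to 5. Mutant array 2 had the highest value and mutant array 3 the lowest, with wild-type array 3 at rank 4 of 9. The log2 difference was 0.22 ± 0.73 (adjusted p = 0.976) and -0.37 without mutant array 2.

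**Figure D3:**
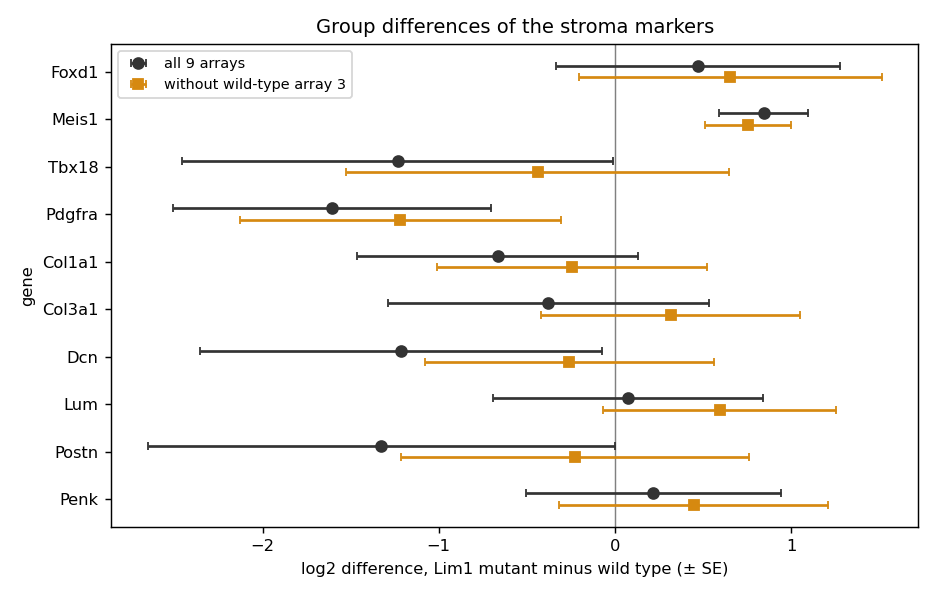
Log2 difference, Lim1 mutant minus wild type, with its SE for the 10 genes, with all 9 arrays (circles) and without wild-type array 3 (squares). The Meis1 bar, drawn for 1450992_a_at (0.85 ± 0.25, and 0.75 without that array), keeps clear of 0 in both fits, though its adjusted p was 0.647 in limma with all arrays. At 1443260_at, not drawn, the Meis1 difference was -0.91 ± 0.79. The Col3a1 point changes from -0.38 to 0.32 without wild-type array 3.

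Stromal factors and matrix genes were next set against each other on each array. Every gene was centred on its own 9-array mean on the log2 scale, and the level of a group of genes on an array is the mean of these deviations, given as a description with no test. The level of the 5 matrix genes was -1.64, 1.22, -0.20 and -0.94 on mutant arrays 1 to 4, against -1.40, 0.81, 3.26, -0.73 and -0.38 on wild-type arrays 1 to 5. That of the 3 factors was -0.89, -0.31, 0.91 and 0.35 on mutant arrays 1 to 4, against -0.41, 0.91, 1.19, -0.43 and -1.33 on wild-type arrays 1 to 5. Mutant array 2 and wild-type array 3 had the highest balance of matrix over factors, 1.53 and 2.07, and mutant arrays 3 and 4 the lowest, -1.11 and -1.29. The same pair, mutant array 2 and wild-type array 3, had the highest Gapdh ratios of 3 prime to 5 prime signal, 61.4 and 87.6, against 12.4 to 39.8 on the other 7 arrays. For beta-actin the ratio was highest on mutant array 2, at 25.2. There wild-type array 3, at 18.0, lay inside the 14.7 to 23.1 of the other 7. The part of RNA quality in the balance of matrix over factors was not tested.

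Between the groups this balance did not separate. The matrix level minus the factor level averaged -0.41 ± 1.31 in the mutants (SD, n = 4) and 0.32 ± 1.20 in the wild type (n = 5), and -0.11 ± 0.80 in the 4 wild-type arrays without array 3. The difference of -0.73 was -0.14 with Meis1 read at 1443260_at. Among the factors the deviation of Tbx18 weighs most, from -2.82 to 3.76, against -0.75 to 0.68 for Meis1 and -2.75 to 1.31 for Foxd1. The 3 factors differed on wild-type array 3, where Tbx18 had rank 1 of the 9 arrays, Foxd1 rank 5 and Meis1 rank 9. On mutant array 2 the 5 matrix genes each had rank 2 or 3 of the 9 arrays, while Tbx18 had rank 7.

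**Figure D4:**
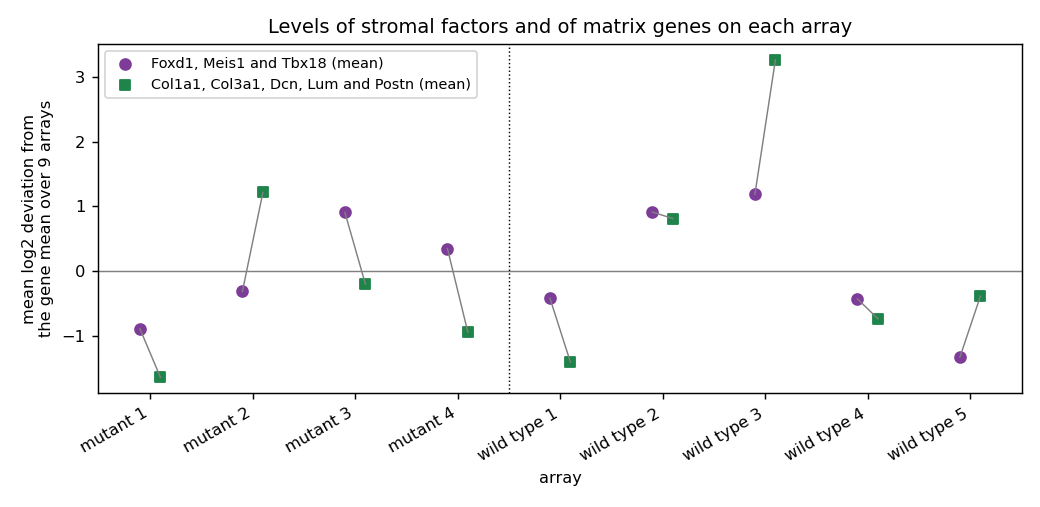
Mean log2 deviation from the gene mean over 9 arrays, for Foxd1, Meis1 and Tbx18 (circles) and for Col1a1, Col3a1, Dcn, Lum and Postn (squares), on each array, mutants left of the dotted line. The matrix genes reach 3.26 on wild-type array 3 and 1.22 on mutant array 2, where the factors are at 1.19 and -0.31.

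Wild-type array 3 was the highest of the 9 arrays for 7 of the 10 genes, where it was the highest for 17.8% of all 13226 genes tested. The exceptions were Foxd1, Meis1 and Penk. By probe set the count was 10 of the 14 tested, against 17.1% of all tested. The 4 member probe sets below the filter had their maximum on other arrays. Without wild-type array 3, 13 member probe sets lay above the filter, so the dimmer Dcn probe set entered this count only through that array. The summed signal of the 10 genes was 12479.5 to 36279 in the mutants and 138726 on wild-type array 3, against 15053 to 42500.1 on the other wild-type arrays. Mutant array 2 was among the 3 highest arrays for 7 genes and wild-type array 2 for 8, while mutant array 1 and wild-type array 5 were among them for none. Some markers of other cells stood high on wild-type array 3 as well, and their part in the matrix signal was not tested. The summed signal of 8 macrophage markers was 3356 to 5303 on the mutant arrays and 20115 on wild-type array 3, against 1171 to 3225 on the other wild-type arrays, with Csf1r at 16543 there and Ptprc below the filter. Without Csf1r the sum of the other 7 was 2101 to 4286 in the mutants and 3572 on wild-type array 3, against 918 to 1979 on the other wild-type arrays. Of the 7 macrophage markers tested, 2 were highest on that array, Csf1r and Fcgr3. The sum of 10 endothelial markers was 3902 to 5572 on the mutant arrays and 24888 on wild-type array 3, against 13734.5 to 20435 on the other wild-type arrays, with Pecam1 and Tie1 below the filter. The tight junction gene Cldn5 was the endothelial marker that passed in limma, lower in the mutants with a log2 difference of -3.40 ± 0.32 (adjusted p = 0.0045). Its signals, 609 to 1329 in the mutants and 7988 to 10631 in the wild type, are a large part of the wild-type endothelial sums. Those sums were not taken without it. The erythroid sum, over 4 measured of 6 listed markers, was 33392 to 118072 in the mutants, and 154375 on wild-type array 3, against 49498 to 132354 on the other wild-type arrays. Most of it was Hbb-y, which was alike on wild-type arrays 3 and 1, at 132244 and 131890. Hbb-bh1 had 21983 on wild-type array 3, against 439 to 3885 on the other wild-type arrays and 481 to 4946 on the mutants. Alas2 and Hba-a1, the latter below the filter, had their maximum on other arrays. Of 5 muscle markers 1 lay above the filter, and the sum of the 5 on that array, 379, was inside the mutant range of 298 to 537.

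**Figure D5:**
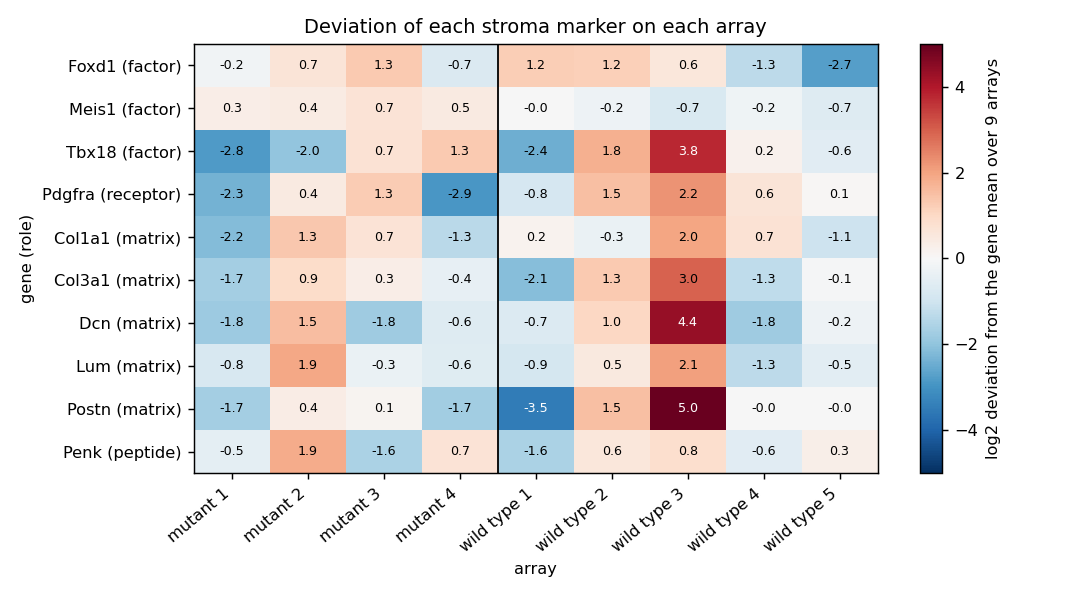
Log2 deviation of each of the 10 genes (rows) from its mean over the 9 arrays (columns, mutants left of the line), with the value in each cell. The wild-type array 3 column is above 0 for every gene but Meis1, and the Meis1 row, drawn for 1450992_a_at, is above 0 on the mutant arrays and below 0 on the wild-type arrays.

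Among 31 regulators listed for stroma and mesenchyme, 29 were tested, Foxd1, Meis1 and Tbx18 included. None passed over all probe sets in limma, against 0.0529% of all genes, 5 had an unadjusted p under 0.05, against 7.73% of all genes, and the differences had a median of 0.33 (16 above 0 and 13 below). At 4 of the 29 the mutant arrays all lay above the wild-type arrays, where 1.8% of all genes did so, and at none did they all lie below (0.968% of all genes). Besides Meis1 at 1450992_a_at these were Meis2, Nr2f1 and Foxc2. Meis2, the paralogue of Meis1, had 14802, 15969.6, 15056 and 14787 on mutant arrays 1 to 4, against 5244, 10472, 12083, 11045 and 9995 on wild-type arrays 1 to 5 (log2 difference 0.70 ± 0.25, adjusted p = 0.696). Its mutant arrays differed little among themselves, at 15154 ± 558 (SD, n = 4), against 9768 ± 2646 in the wild type (n = 5).

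Nr2f1, the nuclear receptor COUP-TFI, had 6345, 8354, 10178 and 6520.4 on mutant arrays 1 to 4, against 3291, 5622, 6043, 3575 and 4187 on wild-type arrays 1 to 5 (0.79 ± 0.28, adjusted p = 0.696). Foxc2, a forkhead factor of mesenchyme and early podocytes, was at 11607 ± 2190.3 in the mutants (n = 4) and 4217 ± 2412 in the wild type (n = 5), with a difference of 1.59 ± 0.36 (adjusted p = 0.359). Without wild-type array 3, an alternative chosen after seeing the data, 6 of 29 regulators had all mutant arrays above, against 3.06% of all genes, with Dchs1 and Dlk1 added to these 4. None of the 29 passed in limma in that fit, against 0.0531% of all genes. With all arrays, 2 of 4 markers tested for cartilage and 1 of 7 tested for cap mesenchyme also had all mutant arrays above, against 1.8% of all genes. They were the cartilage collagen gene Col2a1 at 1526 ± 522 in the mutants and 639 ± 175 in the wild type, Col9a1 at 2956 ± 713 and 828 ± 456, and the cap mesenchyme factor Meox1 at 1517 ± 843 and 400 ± 394. The other cartilage markers did not show this, with log2 differences of -0.51 for Sox9 and -0.21 for Acan, and Matn1 below the filter. In the cap mesenchyme list 4 of 7 differences were below 0, namely Osr1 (-1.26), Crym (-0.43), Itga8 (-0.39) and Eya1 (-0.13). The part of such cells in the regulators' values was not tested.

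Of 40 listed genes of the fibrillar and interstitial matrix, 37 were tested. None passed in limma, 7 had an unadjusted p under 0.05, against 7.73% of all genes, and the median difference was 0.02 (19 above 0 and 18 below). The only one without overlap was Vcan, the large proteoglycan versican, where 0.968% of all genes had all mutant arrays below. Its signals were 26857, 20569, 11916 and 19129 in the mutants, against 43187, 27689, 37493, 35903 and 42244 in the wild type (-0.94 ± 0.23, adjusted p = 0.485). Vcan was not among the genes with their maximum on wild-type array 3. That array was the highest for 23 of the 37, and for 18 of the 32 that were not among the 10 stroma markers. Col1a2, the partner chain of Col1a1, had 40123 there, against 1703 to 8209 on the other wild-type arrays and 1516 to 9181 on the mutants. Col5a2, the collagen V chain gene next to Col3a1 on chromosome 1, had 17886 there, against 134 to 3547 on the other wild-type arrays and 669 to 3026 on the mutants. Without wild-type array 3 the median difference of the 37 was 0.39 (26 above 0 and 11 below), and 2 genes, Mfap2 and Mgp, had all mutant arrays above (3.06% of all genes), and 1, Vcan, all below (2.09% of all genes).

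The enzymes and chaperones that fold and crosslink collagen did not share that maximum. Of 18 tested, 3 were highest on wild-type array 3 (Pcolce, Bmp1 and Loxl1), a share close to the 17.8% of all genes. None passed in limma, 3 had an unadjusted p under 0.05, against 7.73% of all genes, and the median was 0.32 (11 above 0 and 7 below). Serpinh1, the collagen chaperone HSP47, had 28544, 51787, 47769 and 24545 on the mutant arrays, against 35162, 22584, 30334, 23628 and 25233 on the wild-type arrays (0.42 ± 0.19, adjusted p = 0.748). Its value on wild-type array 3 lay inside the range of both groups.

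Of the 6 genes of PDGF ligands and receptors, all 6 were tested and none passed in limma, against 0.0529% of all genes. An unadjusted p under 0.05 was found for 2, against 7.73% of all genes. Pdgfa, the ligand of Pdgfra, had 18938, 42564, 33823 and 22490.5 on mutant arrays 1 to 4, against 16697, 8491, 6749.6, 16289 and 17732 on wild-type arrays 1 to 5. All mutant arrays lay above all wild-type arrays, as for 1.8% of all genes, with a log2 difference of 1.16 ± 0.32 (adjusted p = 0.591). Its receptor gene Pdgfra had a difference of the other sign with overlapping groups, as given above. Wild-type array 3 had the lowest Pdgfa signal and the highest Pdgfra signal of the 9 arrays. Pdgfrb, the receptor of pericytes, was at 1131 to 6330.4 in the mutants and 1335 to 7604 in the wild type (-0.27 ± 0.60, adjusted p = 0.959).

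Genes outside the 10 were ranked by how closely they followed the matrix level across arrays, as a description over arrays that share their amplification and scaling. Of 13216 genes, the 8 closest over the 9 arrays had Pearson correlations of 0.930 to 0.975. All 8 had their maximum on wild-type array 3, which the ranking itself favours, since the matrix level was far the highest there. They were Cebpd, Mrtfb, Fbxl12, Samhd1, Cpsf4l, Tmem119, Agtr2 and Ddr2. Ddr2 encodes a receptor for fibrillar collagen and had 20.8, 267, 201 and 82.6 in the mutants, against 18.0, 1375, 3154, 39.3 and 66.6 in the wild type. Agtr2, the type 2 angiotensin receptor, had 7150 on wild-type array 3 and 11.4 to 882 on the other 8. Over the 8 arrays without wild-type array 3, the closest were Acadl, Cebpd, A230072C01Rik, Mrtfb, B2m, Gpld1, Bahd1 and Samhd1, with correlations of 0.907 to 0.965, and 3 genes (Cebpd, Mrtfb and Samhd1) were in both lists.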

How the data were processed

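Renal vesicle RNA from 4 Lim1 mutant and 5 wild-type samples was measured on an Affymetrix array, 1 array per sample. The authors deposited 1 linear intensity per probe set from GCOS, per the submitters' processing notes; no source used here gives the algorithm, version or scaling. Amplification favours 3 prime ends, so distant probe sets can read low.

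Intensities were transformed as log2(value + 42.4), the 25th percentile of all values. Array medians differed by 0.349, above the tolerance of 0.1, and arrays were quantile normalised. Control probe sets (64) were left out. Probe sets whose mean reached the 40th percentile, 27022 in number, entered limma 3.58.1 in R 4.3.3 (lmFit, eBayes with trend, two-sided, group as the only term), with Benjamini-Hochberg adjustment at 0.05, and the fit was tested on simulated data. Single genes were also compared by two-sided exact permutation over all splits of the arrays. Probe sets were named by the platform annotation (34958 with 1 symbol, 932 with several, 9211 with none). Among several probe sets of a gene, the one with the highest mean on the normalised log2 scale stands for it, and "highest array" refers to the same scale. The number of arrays limits the precision.

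The named genes were all members, genes of the wider lists past the threshold (at most 4 per list and direction) or without overlap (at most 3 besides members), the 8 genes most like the matrix level, and Lhx1; any other list gene was picked with its values known. The members and lists were chosen with earlier results of these data known. Of the listed genes, 12 were not analysed here. Alternatives covered normalisation, filter, pseudocount, trend, array weights, each array left out, a replicate block and averaged probe sets.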

Additional observations from a re-analysis of the deposited data

Results flagged for a closer look

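Dixon's test was applied to the deposited signals of the 18 probe sets within each genotype, 36 groups in all. Chance flags about 1 in 20, or 1.8, if values are normally distributed and groups independent. The signals are linear, span wide ranges and come from the same arrays, so the count below cannot be read against that rate. It marked 9 groups, 6 of them for wild-type array 3, and the members share that array. On the log2 scale of the fit it marked 0 of the 36.

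Wild-type array 3 was marked for Tbx18 (7275, against 53.9 to 1899 on the other wild-type arrays), for Col3a1 at both probe sets (81376, against 2023 to 21087, and 10969, against 108 to 2072), for Dcn at both (4753, against 25.2 to 484, and 558, against 58.2 to 199) and for Postn (24827, against 24.5 to 2273). Mutant array 2 was marked for Dcn (609.8, against 21.8 to 112 on the other mutant arrays) and for Lum (705, against 85.7 to 112). Wild-type array 1 was marked for the Col1a1 probe set below the filter (100.4, against 9.10 to 31.2).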

How the results depend on the processing

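No member probe set passed under any alternative run (limma, with 1 of 14 at an unadjusted p under 0.05 in the fit reported). Over the 21 alternatives the lowest adjusted p for a member gene was 0.43, for Meis1 with array weights. Of 207 gene values under alternatives, 193 kept their direction and 14 did not. Those were Col3a1 without mutant array 1 (0.11) and without wild-type array 3 (0.32); Foxd1 without wild-type array 5 (-0.16) and with the replicate block (-0.16); Penk with array weights (-0.093), without mutant array 2 (-0.37) and without wild-type array 1 (-0.15); Lum with the block (-0.054) and without mutant array 2 (-0.56) or wild-type array 1 (-0.14), 4 (-0.24) or 5 (-0.05); and Meis1 with averaged probe sets (-0.044) and with the probe set of highest mean deposited signal (-0.91; chosen after seeing the data). With an array left out, Col3a1 ranged from -0.94 to 0.32, Foxd1 from -0.16 to 0.83, Lum from -0.56 to 0.60, Penk from -0.37 to 0.79, Col1a1 from -1.23 to -0.065, Pdgfra from -2.32 to -0.94, Tbx18 from -1.99 to -0.44, Dcn from -1.95 to -0.26 and Postn from -2.34 to -0.23. The number of member genes above 0, 4 of 10, was 2 of 7 with the filter at the 60th percentile, 2 of 10 with the block and 2 to 5 with an array left out. The difference between mutants and wild type in matrix minus factor level, -0.73, ranged from -1.37 to -0.29 with an array left out and was -0.14 with that choice of probe set. Over all probe sets, 9 passed, 3 to 8 with an array left out, 0 in limma with the block (1756 at an unadjusted p under 0.05) and 0 without wild-type arrays 1 and 3 (2012 unadjusted). The cause of these changes was not tested. The labels do not say whether replicate numbers pair the arrays. Same-numbered deviations correlated at -0.11 to 0.05, and 1 of 4 mutant arrays was closest to its own number. Among the members, the block lowered the SE for Foxd1 (0.81 to 0.50), Pdgfra (0.90 to 0.57) and Col3a1 (0.91 to 0.53), among others. It raised the SE for Meis1 only (0.25 to 0.35). With the block the Pdgfra difference was -1.77 (limma adjusted p = 0.693). Signals near the filter level, such as most Lum and Dcn values, limit what those genes can show.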

Other observations

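Of 14 listed mural cell genes 7 were tested, and 5 of the 7 were highest on wild-type array 3 on the normalised log2 scale, against 17.8% of all genes. For 1 of the 5, Kcnj8, the deposited signal was slightly higher on wild-type array 2, 332 against 330.1. Rgs5, a pericyte regulator of G protein signalling, had 435 to 2157 on the mutant arrays and 10182 on wild-type array 3, against 185 to 2196 on the other wild-type arrays. Acta2, smooth muscle actin, was at 1323 to 4914 in the mutants and 249 to 5067 in the wild type (log2 difference 1.10 ± 0.84, limma adjusted p = 0.86). None of the 7 passed in limma, and 1 had an unadjusted p under 0.05, against 7.73% of all genes. Rgs5, Acta2 and Kcnj8 were chosen after their values were seen.

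Of the opioid peptides and receptors 7 were tested, with 0 past the limma threshold (0.0529% of all genes) and 0 under an unadjusted p of 0.05 (7.73% of all genes). The receptor genes Oprk1 and Oprm1 were dim, at 82.2 to 230.3 and 43.3 to 127 in the mutants and 162 to 335 and 15.7 to 225 in the wild type. Genes next to the 10 markers along the chromosome were also looked up. Of 9 such neighbours above the filter, 2 were highest on wild-type array 3, Col5a2 and Spred2, a share close to the 17.8% of all genes.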
